A study of Homo sapiens with 4 samples.

Results

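Leukocyte adhesion genes, 9 in number, were followed in the ZNF217 peak lists of 2 AML lines: the integrin genes ITGAM, ITGAX, ITGAL, ITGB2, ITGA4, ITGA5, ITGB1 and ITGB7, and SELPLG, which encodes a selectin ligand. They were taken by name, with earlier results of these data known, as 9 of 19970 protein-coding genes on chromosomes 1 to 22 and X. For each gene, peaks were collected within 1 kb of any annotated transcription start site (TSS), and throughout the gene body with 50 kb on each side, which is called its locus here. Peaks of the 2 lines that had 1 bp or more in common were counted as shared.

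The study mapped ZNF217, a zinc finger transcription factor, by CUT&Tag, in which an antibody directs a transposase to the chromatin around its target. The 4 samples were a ZNF217 and an IgG library of MV4-11 and of U937, both labelled as untreated. MV4-11 and U937 are established human myeloid leukemia lines, the first with a KMT2A fusion and the second with a PICALM fusion. The peak list of each ZNF217 library was used, whereas the IgG samples are not analysed here. Each line had 1 library, and its list held positions on hg38 with neither heights nor counts of reads. No p-value was calculated, the read depth is unknown, and a difference between the lines cannot be told apart from a difference between the 2 libraries. The lists held 36356 peaks in MV4-11 and 21737 in U937 on these chromosomes, a ratio of 1.67 (1.64 to 1.7, 95% interval of counting error). A peak reports binding called over background, not expression. Among markers of blood lineages, 7 of 9 myeloid genes had a promoter peak in MV4-11 and 4 of 9 in U937. Over all protein-coding genes the shares were 59.0% and 50.5%. CD33, SPI1, CSF1R and CD68 had a promoter peak in both lines, MPO, CD14 and FCGR1A in MV4-11 only, and LYZ and PTPRC in neither. Of the T-cell markers 0 of 5 had one in either line, of the B-cell markers 3 of 5 in MV4-11 and 2 of 5 in U937, and of the erythroid and megakaryocyte markers 1 of 5 in both.

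Integrins are membrane receptors built from an alpha and a beta chain, and they switch between a bent, inactive and an extended, ligand-binding form. On myeloid cells ITGB2 (CD18) pairs with ITGAL (CD11a) to form LFA-1, with ITGAM (CD11b) to form Mac-1 and with ITGAX (CD11c), and these receptors bind ICAM proteins, complement fragments and fibrinogen. ITGA4 pairs with ITGB1 to form VLA-4, a receptor for VCAM1 and fibronectin, or with ITGB7 to form the gut-homing receptor of MADCAM1, while ITGA5 with ITGB1 forms the classical fibronectin receptor. SELPLG (PSGL-1) is the sialomucin by which leukocytes roll on P-selectin, and it binds only after fucosylation and sulphation.

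Sequences of 4 member promoters are shown because their ZNF217 peaks lay differently over the start site. ITGAM, in the CpG-poor class, had its start covered in MV4-11 and had its U937 peak just inside the gene. ITGA5 had its start covered in MV4-11 and flanked by a pair of peaks in U937. ITGB1 represents the CpG-rich class and was covered in both lines, and ITGB7 was covered in MV4-11 alone. The sequences are from the RefSeq promoter windows, which hold 250 bases before and 50 after a start. They read 5′ to 3′ on the gene's strand and stop before the first transcribed base. Positions are on GRCh38.p14: ITGAM chr16:31259725-31259966 (+), ITGA5 chr12:54419267-54419516 (−), ITGB1 chr10:32958326-32958480 (−) and ITGB7 chr12:53207283-53207501 (−). Capitals mark the matches of the searched motifs, on either strand.
ITGAM promoter: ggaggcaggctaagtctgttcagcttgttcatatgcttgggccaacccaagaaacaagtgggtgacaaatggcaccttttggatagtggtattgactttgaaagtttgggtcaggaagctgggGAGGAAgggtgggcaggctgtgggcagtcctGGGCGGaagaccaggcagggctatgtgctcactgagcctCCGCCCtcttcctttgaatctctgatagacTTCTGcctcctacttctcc
ITGA5 promoter: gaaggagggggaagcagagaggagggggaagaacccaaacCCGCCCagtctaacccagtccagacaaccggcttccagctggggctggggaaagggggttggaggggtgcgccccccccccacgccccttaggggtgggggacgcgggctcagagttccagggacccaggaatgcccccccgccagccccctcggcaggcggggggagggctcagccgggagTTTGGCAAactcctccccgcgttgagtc
ITGB1 promoter: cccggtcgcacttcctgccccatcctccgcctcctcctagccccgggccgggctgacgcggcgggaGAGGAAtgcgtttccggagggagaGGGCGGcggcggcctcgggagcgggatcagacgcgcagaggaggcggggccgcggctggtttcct
ITGB7 promoter: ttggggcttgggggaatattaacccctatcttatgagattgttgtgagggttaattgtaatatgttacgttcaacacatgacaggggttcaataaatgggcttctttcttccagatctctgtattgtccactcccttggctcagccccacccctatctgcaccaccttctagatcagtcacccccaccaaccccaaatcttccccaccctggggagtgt

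The central 140 bases of 3 regions that both lines shared away from these starts are shown as examples of common binding in loci whose peaks at the start lay differently in the lines. They lay upstream of ITGAM (chr16:31253668-31253807, +), in intron 1 of ITGA5 (chr12:54412663-54412802, −) and in intron 1 of ITGB7 (chr12:53205899-53206038, −) on hg38, and none overlapped an annotated exon.
ITGAM upstream region: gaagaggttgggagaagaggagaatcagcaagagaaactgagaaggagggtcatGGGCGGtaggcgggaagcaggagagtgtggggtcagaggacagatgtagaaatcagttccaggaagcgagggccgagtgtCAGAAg
ITGA5 intron 1 region: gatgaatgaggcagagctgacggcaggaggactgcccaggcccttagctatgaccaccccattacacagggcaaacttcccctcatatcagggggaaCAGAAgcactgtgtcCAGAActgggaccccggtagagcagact
ITGB7 intron 1 region: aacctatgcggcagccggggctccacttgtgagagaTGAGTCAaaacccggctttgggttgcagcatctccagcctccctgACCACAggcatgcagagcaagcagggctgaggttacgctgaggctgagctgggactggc

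A set of 7 motifs was searched on both strands, and a match is a match of letters only. Windows of 5 of the 9 genes (ITGAM, ITGA4, ITGA5, ITGB1 and ITGB7) were matched at the canonical start, which is the start of the transcript that the annotation tags as canonical. ITGAX, ITGAL, ITGB2 and SELPLG had no RefSeq window at that start. A search of the genome sequence there was planned for such genes but was not made, so the counts leave these genes out. CAGAA, the core of the ZNF217 consensus, lay in 2 of the 5 windows (ITGAM and ITGA4) and in 54.4% of all 35116 windows. In ITGAM the printed match, on the opposite strand as TTCTG, began 27 bases before the RefSeq start. CAGAA was also found in the ITGAM upstream region and at 2 places in the ITGA5 intron, against 31.8% of peak centres of the same length in MV4-11 and 28.9% in U937. GAGGAA, which PU.1 and other ETS factors can bind, lay in the windows of ITGAM, ITGB1 and ITGB7 (27.9% of all windows). TGTGGT, the RUNX core, lay in the ITGAM window (13.1%) and in the ITGB7 intron, against 11.6% and 8.9% of peak centres in MV4-11 and U937. The GC box GGGCGG was found in the windows of ITGAM, ITGA5 and ITGB1 (45% of all windows) and in the ITGAM upstream region (19.4% and 23.7% of peak centres). The AP-1 pattern TGANTCA was in the ITGA5 window (7.71%) and the ITGB7 intron (4.54% and 5.07% of peak centres). The C/EBP pattern TTGCNNAA was in the ITGA5 window (10.5%), and TATAAA in 0 of the 5 (11.5%). Some matches lie in the part of a window that is not printed.

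ZNF217 was called at the promoter of all 9 genes in MV4-11 and of 7 in U937. The exceptions in U937 were ITGAL and ITGB7, both occupied in MV4-11 only, and no gene was occupied in U937 only. Among all protein-coding genes 59.0% had a promoter peak in MV4-11, 50.5% in U937, 47.4% in both and 11.6% in MV4-11 only. With the canonical start alone the counts were again 9 and 7, against 54.7% and 46.5% of all genes. This second count bears on the number of starts, since the 9 genes had 3 to 25 annotated TSSs and the median gene had 5. At least 1 peak lay in the body of all 9 genes in MV4-11 (64.6% of all genes) and of 8 in U937 (55.6%), ITGAL being the exception. The background is all protein-coding genes, not matched on expression, which was not measured in these files.

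**Figure D1:**
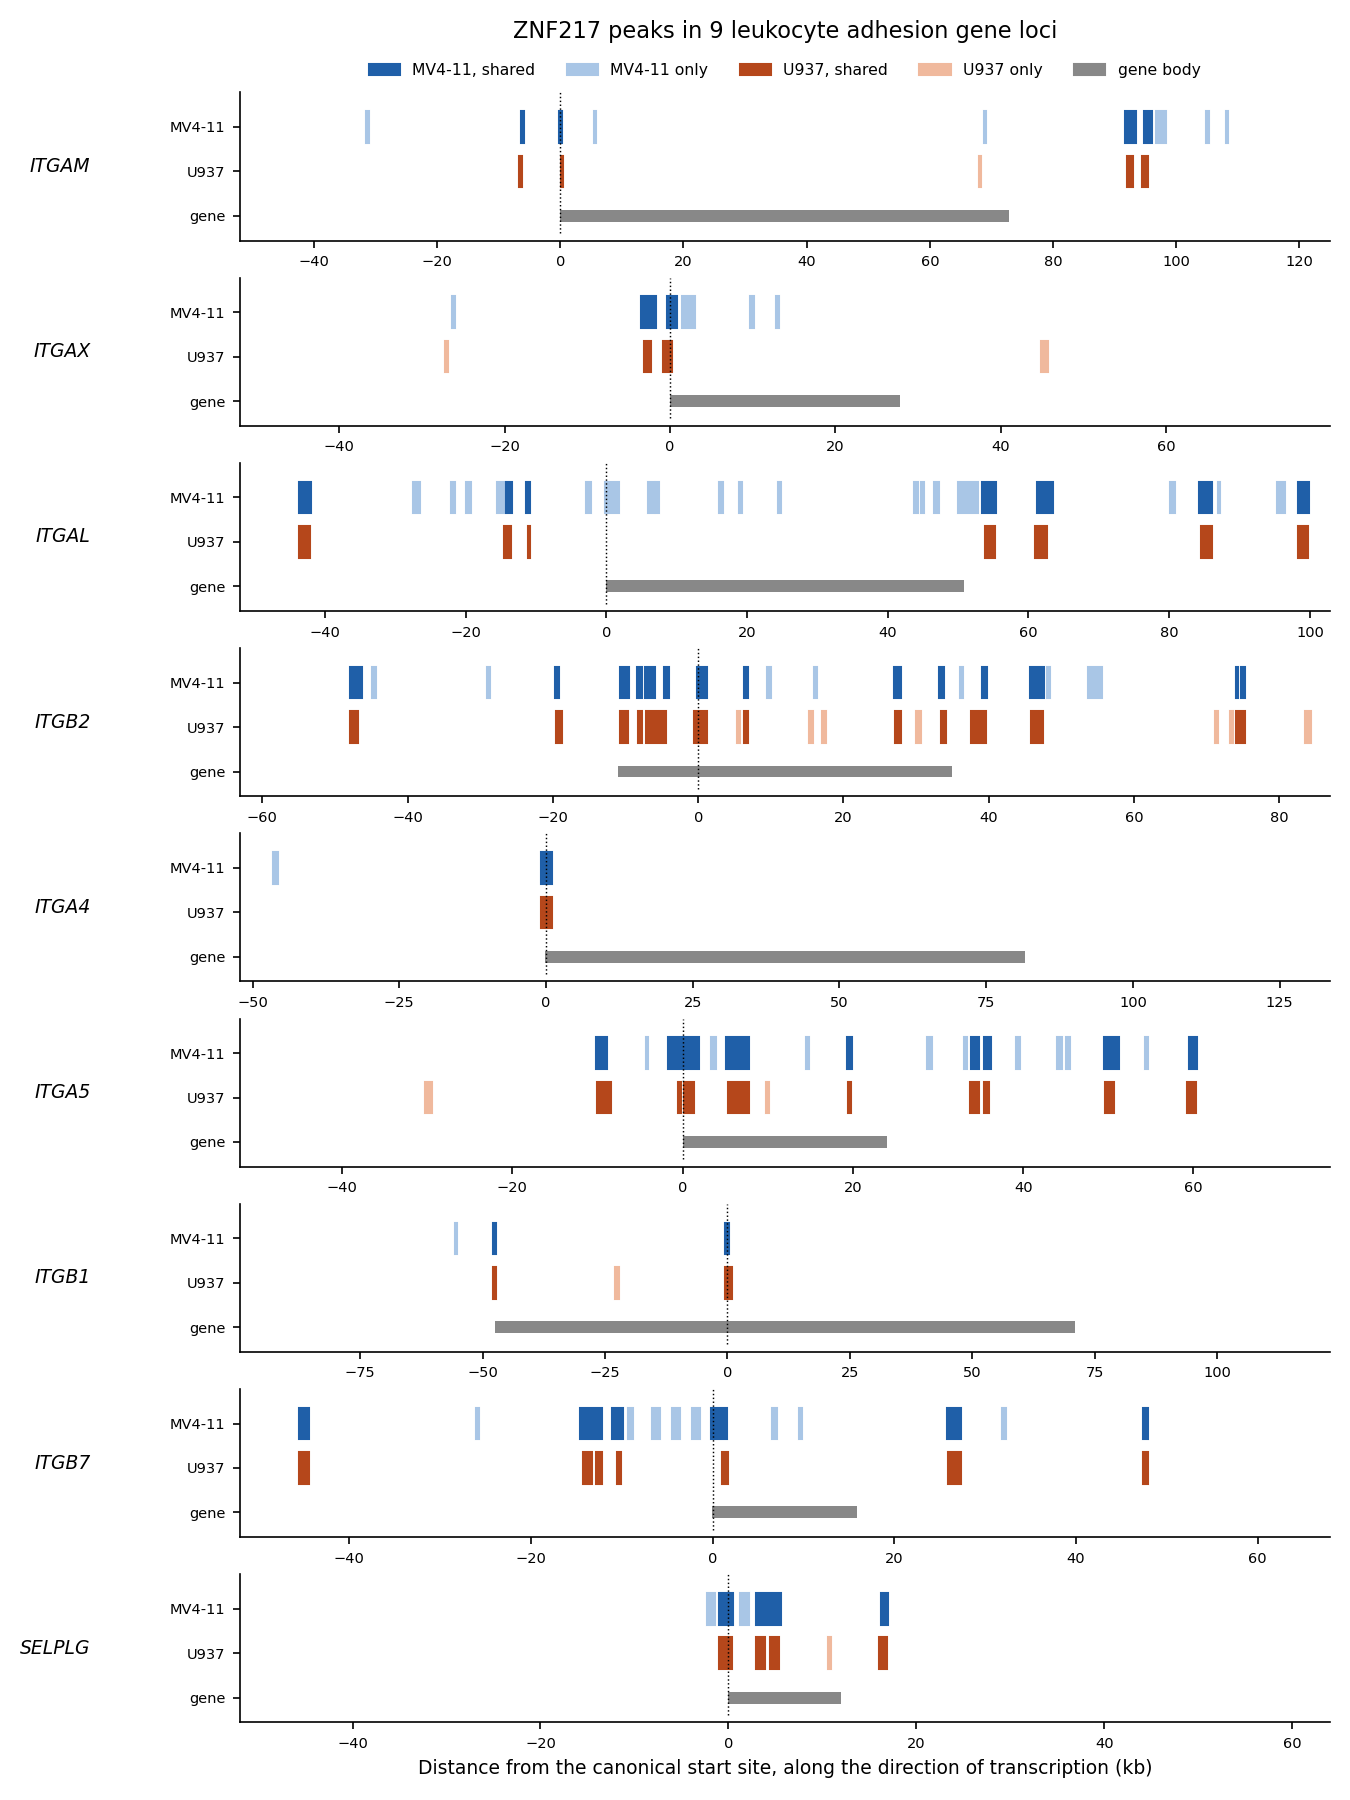
Position of every ZNF217 peak in the 9 loci, as distance in kb from the canonical start along the direction of transcription (x axis), with MV4-11 above U937 and the gene body as a grey bar. Dark boxes are shared peaks, pale boxes are peaks of 1 line, and box outlines widen the narrowest peaks slightly. In U937 the ITGAL body holds no peak while ITGB2 carries 11 promoter and body peaks.

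Most of these promoters were poor in CpG. Over the 1 kb around the canonical start, 7 of the 9 were CpG-poor, meaning an observed over expected CpG ratio under 0.6, a class that held 33.7% of all genes. The ratio was 0.16 in ITGB7, 0.17 in ITGAM, 0.18 in ITGAX and ITGAL, 0.20 in SELPLG, 0.34 in ITGB2 and 0.55 in ITGA5. ITGA4 and ITGB1, with 0.87 and 0.89, were CpG-rich. All 4 genes of the beta2 family were in the CpG-poor class. Across the genome 74.9% of genes in the CpG-rich class had a peak within 1 kb of any start in MV4-11 and 66.4% in U937. Of genes in the CpG-poor class 27.5% and 19.3% had one. The class was set at the canonical start but the peak could lie at any start, so a gene can count through another start. Members are counted in the same way. In the CpG-poor class the members occupied were 7 of 7 in MV4-11 and 5 of 7 in U937, and both CpG-rich genes were occupied in both lines.

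In the beta2 family the genes differed widely in their number of peaks. ITGB2 (chr21:44885953-44931989, − strand), the beta chain that ITGAL, ITGAM and ITGAX share, was densely occupied in both lines. Its locus held 21 peaks in MV4-11, of which 14 were shared, and 19 in U937, of which 12 were shared. That was 14.4 and 13 peaks per 100 kb, at the 93.6 and 99.6 percentiles of all protein-coding genes, whose medians were 1.96 and 1.35. The canonical start was covered in both lines, by peaks of 1363 bp (MV4-11, chr21:44919673-44921036) and 1905 bp (U937), and the MV4-11 peak lay wholly within the U937 one. Further 5′ ITGB2 has alternative starts, and here the lines shared 3 promoter peaks. They measured 1322, 617 and 1176 bp in MV4-11 and 2799, 542 and 1115 bp in U937. The U937 peak of 2799 bp (chr21:44925324-44928123) was wider than 98.4% of U937 promoter peaks, and it joined regions that MV4-11 gave as 668 and 1322 bp. This stretch and the canonical start also hold starts of the antisense RNA ITGB2-AS1, and peaks have no strand, so these genes cannot be told apart. Inside the gene, shared promoter peaks lay in intron 1 (616 and 599 bp) and around exon 10 (876 and 816 bp), and a shared body peak in intron 14 (813 and 687 bp). One intron 1 promoter peak was found in MV4-11 only (529 bp) and another in U937 only (498 bp). Away from the gene, PTTG1IP, its downstream neighbour, had a shared promoter peak (1823 and 1671 bp) and 2 more in MV4-11 only (1934 and 380 bp), and SLX9 had a shared one (550 and 827 bp). The widest U937 peak away from the ITGB2 promoter, 2039 bp, was centred 38593 bp downstream of the start and was shared. Peaks covered 18.3% of the ITGB2 body in MV4-11 and 23.4% in U937.

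ITGAL (chr16:30472658-30523567, + strand), the alpha chain of LFA-1, showed the widest contrast. MV4-11 had 8 promoter and 2 other body peaks, covering 13.9% of the gene, and U937 had 0. The canonical start was covered in MV4-11 by a peak of 1904 bp (chr16:30472613-30474517), at the 88.9 percentile of promoter width, over 9 annotated starts. The other 7 promoter peaks, of 309 to 748 bp, lay within 1 kb of starts inside the gene. Those of 496, 546 and 309 bp covered no start and lay 715, 660 and 760 bp from the nearest one. The widest body peak, 2866 bp, ran over the 3′ end of the gene. None of these 10 peaks was shared. In U937 the nearest peak was 10776 bp from the canonical start. The locus as a whole held 25 peaks in MV4-11 and 7 in U937, a ratio of 3.57 (1.5 to 9.78, exact interval for counting error), beside 1.67 over all peaks. This interval holds 1.67. ITGAL had the highest ratio of the loci, and the interval of each other locus also held 1.67. All 7 U937 peaks were shared, and all lay outside the gene. Of these, 5 were at the promoters of DCTPP1, a dCTP pyrophosphatase gene (1544 bp), and of the zinc finger genes ZNF768 (1313 bp), ZNF747 (1724 bp), ZNF764 (1496 bp) and ZNF688 (1460 bp). MV4-11 had peaks at the same promoters, of 1636, 2010, 2288, 1843 and 1627 bp, and a further one at SEPHS2 (987 bp). The peak at ZNF747 also touches a start of the overlapping coding gene ENSG00000261459. The other U937 peaks lay 13993 and 10986 bp upstream (977 and 419 bp) and overlapped MV4-11 peaks of 792 and 532 bp.

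ITGAM (chr16:31259967-31332892, + strand), the alpha chain of Mac-1, was occupied in both lines by narrow peaks. MV4-11 had a peak of 569 bp over the canonical start (chr16:31259732-31260301), and U937 had one of 354 bp (chr16:31260030-31260384) that began 56 bp downstream of it. They overlapped by 271 bp. The U937 peak was wider than only 2.68% of U937 promoter peaks and lay near the list's lowest width of 330 bp. Both lines had a second, unshared peak at starts far inside the gene, 317 bp wide and centred at 68982 bp in MV4-11, and 416 bp wide at 68156 bp in U937. Upstream, peaks of 381 and 546 bp shared 148 bp, centred 6122 and 6437 bp before the start, and this is the first of the printed regions. In intron 3 a 387 bp peak was found in MV4-11 only.

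ITGAX (chr16:31355134-31382999, + strand), the CD11c alpha chain, lies beside ITGAM in the same direction, and the loci of these genes overlap, so several peaks belong to both. Its canonical start was covered in both lines, by 1250 bp in MV4-11 (chr16:31354771-31356021) and 1036 bp in U937 (chr16:31354356-31355392), with 621 bp in common. The U937 peak extended further upstream and the MV4-11 peak further into the gene. A shared peak just upstream measured 1812 and 831 bp, centred 2636 and 2716 bp before the start, the widest away from the ITGAX promoter in MV4-11. In both lines this peak also lay within 1 kb of a start of the noncoding gene ENSG00000289930. The body held 3 further peaks in MV4-11, of 1609 bp in intron 5 and of 539 and 422 bp in intron 14, and 0 in U937. The widest U937 peak away from the promoter, 865 bp, lay 45278 bp downstream and was not shared. Over the ITGAM locus the counts were 10 and 5 peaks, and over the ITGAX locus 6 and 4.

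In the beta1 and beta7 family the CpG-rich genes, ITGA4 and ITGB1, had few peaks, and their promoter peaks were shared. ITGA4 (chr2:181457202-181538940, + strand), the alpha chain of VLA-4, had 1 promoter peak in each line and no other peak in its body. It measured 1847 bp in MV4-11 (chr2:181456536-181458383) and 1923 bp in U937, over 7 starts in both, and the MV4-11 peak lay wholly within the U937 one. These widths were at the 87.9 and 93.2 percentiles of promoter peaks. The only other peak of the locus was an 821 bp MV4-11 peak 46161 bp upstream. At 1.1 and 0.55 peaks per 100 kb ITGA4 was the sparsest of the 9 loci in both lines.

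ITGB1 (chr10:32887273-33005792, − strand), the beta chain of VLA-4 and of the fibronectin receptor, had 2 promoter peaks in each line, and both were shared. At the canonical start they measured 886 bp in MV4-11 (chr10:32957908-32958794) and 1384 bp in U937 (chr10:32957410-32958794). Both ended at the same base upstream, and the U937 peak ran further into the gene. At the most upstream start the peaks were 609 and 645 bp, centred 47517 and 47530 bp before the canonical start. U937 had an unshared peak of 805 bp between these starts, and MV4-11 an unshared one of 433 bp upstream of the gene. The peaks at the canonical start also lay within 1 kb of a start of the divergent transcript ITGB1-DT.

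ITGA5 (chr12:54395261-54419266, − strand), the alpha chain of the fibronectin receptor, carried the widest promoter peak of the 9 genes. In MV4-11 a peak of 3661 bp (chr12:54417339-54421000), wider than 98.6% of promoter peaks, covered the canonical start. In U937 peaks of 1087 bp (chr12:54417969-54419056) and 424 bp (chr12:54419413-54419837) lay on both sides of it, at 210 and 148 bp, and within the MV4-11 peak. The start itself was thus outside any U937 peak, although both peaks counted as promoter peaks. Merging peaks less than 500 bp apart joins these U937 peaks over the start, so this contrast depends on how the region was split. In both lines the peaks at the canonical start also lay within 1 kb of a start of the noncoding gene GPR84-AS1. In intron 1, over an internal start, the lines shared a wide peak (MV4-11 2776 bp, U937 2458 bp), the U937 one wholly within the other. At a start near exon 27, narrow peaks of 478 and 369 bp were shared. An intron 13 peak of 336 bp was found in MV4-11 only, as was a 521 bp peak in intron 1, and a 390 bp peak around exon 4 in U937 only. The locus held 17 and 11 peaks. It includes promoter peaks of ZNF385A, a zinc finger gene, at 864 and 988 bp in MV4-11 and 645 and 1137 bp in U937, with 3 more in MV4-11 only, and a 441 bp peak at GPR84, a fatty acid receptor gene, in MV4-11 only. Away from promoters of coding genes the widest peaks were 1697 bp, centred 50359 bp downstream in MV4-11, and 1669 bp, centred 9248 bp upstream in U937, and both were shared. The U937 peak lay at a start of the noncoding gene LINC01154.

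ITGB7 (chr12:53191323-53207282, − strand), the beta chain of the gut-homing integrin, was called at its promoter in MV4-11 alone, but the binding in the lines overlapped. MV4-11 had a 1704 bp peak (chr12:53205699-53207403) over 4 starts. U937 had a 681 bp peak (chr12:53205557-53206238) in intron 1, which ended 1013 bp from the canonical start, just outside the 1 kb window. These peaks overlapped by 539 bp, and the third printed region lies there. ITGB7 is the gene just outside the window, and the case just inside is a 356 bp U937 peak in exon 2 of SELPLG, 992 bp from an internal start. The remaining ITGB7 promoter peaks, of 500 and 403 bp, lay at internal starts in MV4-11 only. Just upstream of ITGB7 MV4-11 had unshared peaks of 836 and 883 bp, and at starts of RARG, the retinoic acid receptor gamma gene, unshared ones of 909, 559 and 286 bp. The widest peak away from the ITGB7 promoter, 2425 bp in MV4-11, lay at RARG and overlapped U937 peaks of 654 and 1082 bp. Shared peaks were also found at MFSD5 (1120 and 1108 bp) and at CSAD and ZNF740 (1573 and 1459 bp), and a 462 bp peak at CSAD in MV4-11 only. The locus held 14 and 7 peaks, and all 7 of U937 were shared.

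SELPLG (chr12:108621895-108633894, − strand) was occupied in both lines. The canonical start lay under a peak of 1487 bp in MV4-11 (chr12:108633391-108634878) and 1373 bp in U937 (chr12:108633471-108634844), the U937 peak wholly within the MV4-11 one. These peaks also lay within 1 kb of a start of the noncoding gene MIR4496, and the MV4-11 peak of a start of ENSG00000257221. Inside the long first intron MV4-11 had a peak of 2679 bp, the widest of this locus, where U937 had 906 and 1032 bp. A 1013 bp peak over the second start was found in MV4-11 only, as was an 840 bp peak upstream. Peaks covered 35% of the gene in MV4-11 and 22.6% in U937, the highest share of the 9 genes in MV4-11. A further shared peak lay beyond the 3′ end, 712 and 809 bp wide. The locus held 5 peaks in each line.

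**Figure D2:**
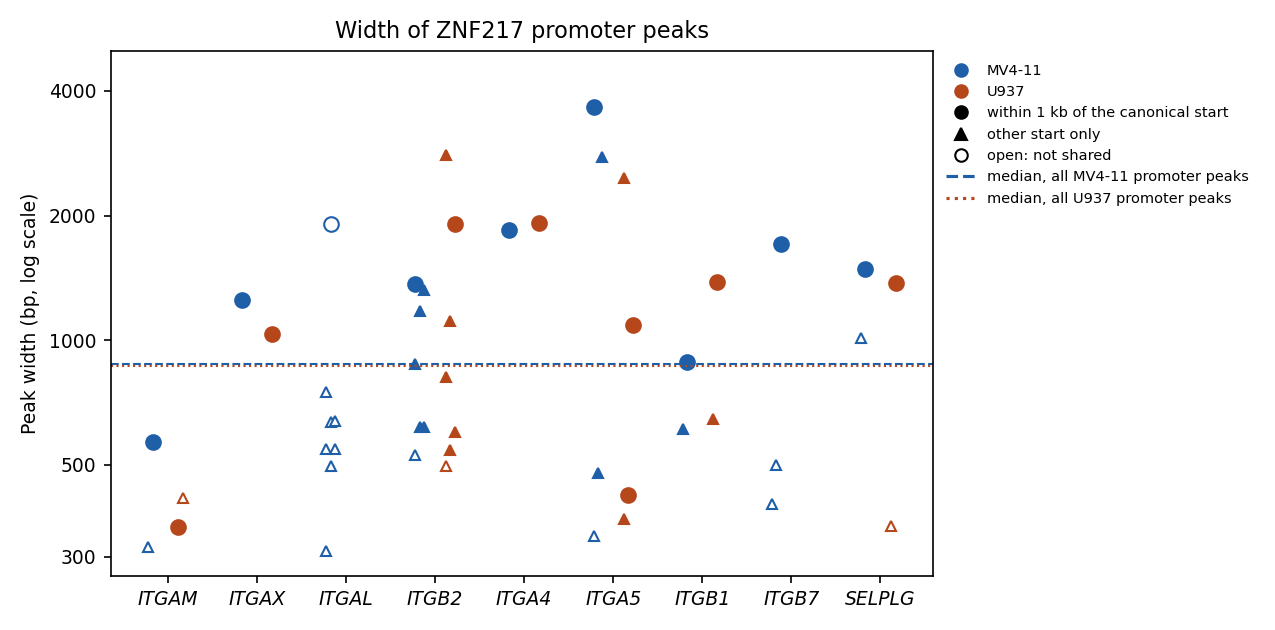
Width in bp (y axis, log scale) of each promoter peak of the 9 genes in MV4-11 (blue) and U937 (orange), with circles for peaks within 1 kb of the canonical start, triangles for other starts, and open symbols for peaks not shared. The dashed and dotted lines are the medians of all promoter peaks, 874 and 864 bp, and most triangles lie below them.

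The median promoter peak of these genes was wider at canonical than at other starts, with exceptions. In MV4-11 the 9 peaks within 1 kb of a canonical start had a median of 1487 bp and the 21 at other starts of 609 bp. In U937 the medians were 1230 bp for 8 peaks and 599 bp for 11. The order was the other way in U937 for ITGAM, ITGB2 and ITGA5, whose widest promoter peaks (416, 2799 and 2458 bp) lay at other starts. The same split was not made over all genes. All promoter peaks of these lists had medians of 874 bp (14637 peaks) and 864 bp (10647 peaks). Between the lines the width at the canonical start had no common direction: it was larger in MV4-11 for ITGAM, ITGAX, ITGA5 and SELPLG and larger in U937 for ITGB2, ITGA4 and ITGB1.

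**Figure D3:**
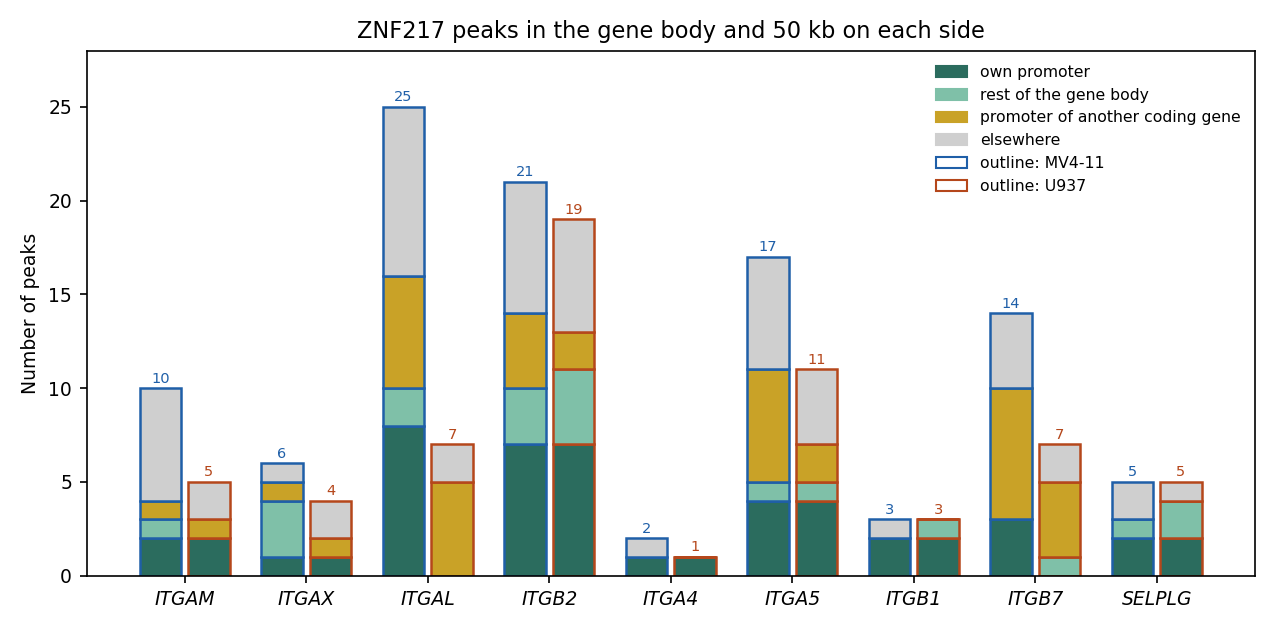
Number of ZNF217 peaks (y axis) in each gene body with 50 kb on each side, stacked by position, with MV4-11 outlined in blue at left and U937 in orange at right. Position is relative to the gene of the bar, so ITGAX promoter peaks count as another coding gene's promoter in the ITGAM bars. The totals above the bars lie between 2 and 25 in MV4-11 and between 1 and 19 in U937, and ITGAL has the largest gap, 25 against 7.

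Counting each peak once, the 9 loci held 97 peaks in MV4-11 and 59 in U937, a ratio of 1.64 (1.18 to 2.31). This interval holds the ratio of 1.67 over all peaks. Of the 97 peaks 45 were shared, or 46.4% (36.2 to 56.8, exact interval), beside 40.4% of all MV4-11 peaks. Of the 59 peaks 46 were shared, or 78.0% (65.3 to 87.7), beside 68.6% of all U937 peaks. Both intervals hold the share over all peaks. By position, 16 of 30 member promoter peaks were shared in MV4-11 and 16 of 19 in U937, beside 62.6% and 87.0% of all promoter peaks. The 14 that MV4-11 did not share included all 8 of ITGAL. Peaks in the rest of the gene bodies were shared in 3 of 11 and 4 of 9 cases, and peaks at promoters of other coding genes in 12 of 23 and 13 of 13. Peaks elsewhere were shared in 14 of 33 cases (42.4%, 25.5 to 60.8) and 13 of 18 cases (72.2%, 46.5 to 90.3). Of all peaks away from promoters of coding genes 25.4% were shared in MV4-11 and 50.9% in U937. That set includes peaks in gene bodies, so it is not a like background for the peaks elsewhere alone. The narrowest peak of the whole list was 283 bp for MV4-11 and 330 bp for U937, and 5 MV4-11 peaks of these loci were narrower than any U937 peak. None of these 5 was shared, and 2 were member promoter peaks.

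Of 57 other genes of leukocyte adhesion in 6 lists, 38 had a promoter peak in MV4-11, 33 in U937 and 31 in both, or 66.7% and 57.9% beside the 59.0% and 50.5% of all genes. The lists were chosen with earlier results of these data known, and their genes were not split by CpG class. Over all CpG-rich genes the shares were 74.9% and 66.4%. The integrin activation genes, which carry the signal that unbends integrins from inside the cell, were occupied in 12 of 12 and 11 of 12 cases. They include TLN1, which encodes talin (1612 and 1521 bp), and FERMT3, which encodes the blood cell kindlin (widest 3377 and 3391 bp). CYTH1, encoding a beta2 integrin-binding exchange factor, had a peak in MV4-11 only (766 bp). Genes of the enzymes that make selectin-binding glycans and sulphated tyrosines were occupied in 7 of 9 and 8 of 9 cases. FUT4 had widest peaks of 2687 and 2507 bp, and FUT7, the fucosyltransferase that completes the selectin ligand on PSGL-1, had single peaks of 7765 and 2608 bp. ST3GAL6, a sialyltransferase gene, had a peak in U937 only (1001 bp), and TPST1, a tyrosine sulphotransferase gene, had none.

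Occupancy of the other integrin chains was nearer to the background or below it. Of 13 other alpha chains 6 had a promoter peak in MV4-11 and 4 in U937. ITGA3 (widest 491 and 1079 bp) and ITGA7 (1206 and 1438 bp), both laminin receptors, had one in both lines, and the platelet chain ITGA2B (626 bp) and ITGA6 (439 bp) in MV4-11 only. Of 5 other beta chains 3 were occupied in MV4-11 and 1 in U937: ITGB4 in both (widest 2531 and 847 bp), and ITGB3 (394 bp) and ITGB5 (596 bp) in MV4-11 only. Among 10 ligands of integrins 6 and 5 were occupied. ICAM1, the main ligand of LFA-1, had peaks of 2773 and 2641 bp, and ICAM3 had 3229 and 1397 bp at the widest. ICAM5 had one of 312 bp in MV4-11 only, narrower than the lowest width of 330 bp in the U937 list. Of 8 selectins and other carriers of selectin ligands 4 were occupied in each line and 3 in both. CD44 had peaks of 1278 and 964 bp and SPN (CD43) of 4843 and 1208 bp, CD34 had one in MV4-11 only (531 bp) and PODXL in U937 only (524 bp). TPST1 was named after its values were seen.

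**Figure D4:**
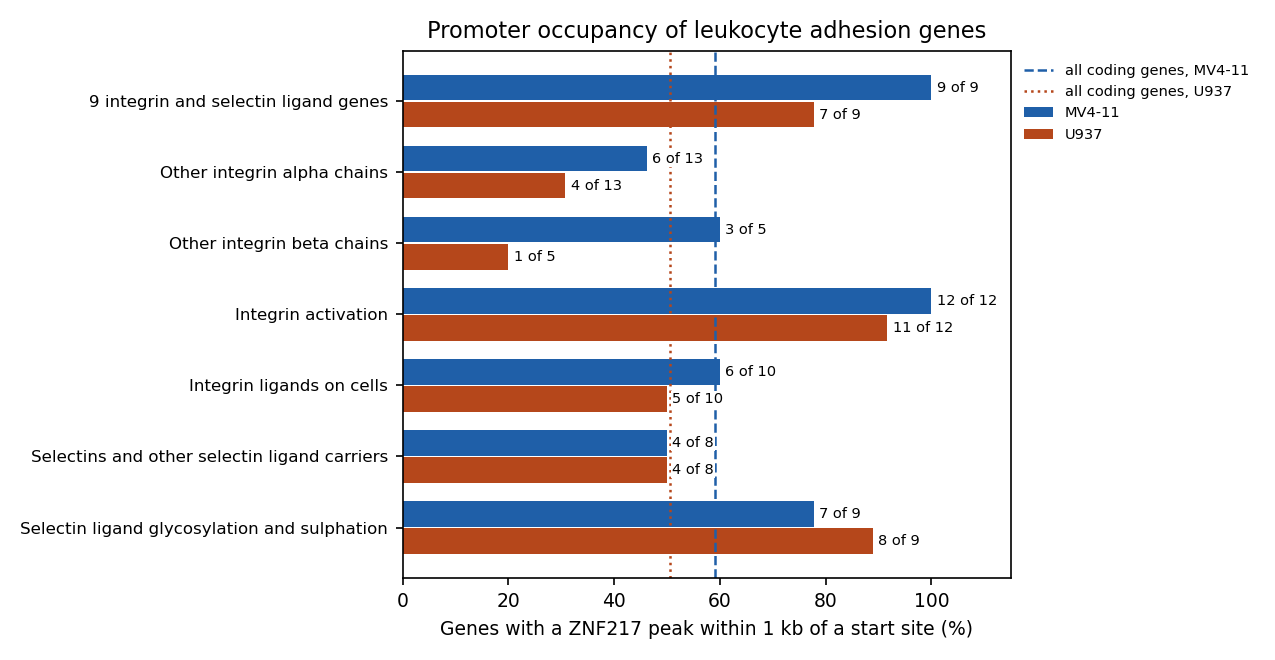
Share of genes with a ZNF217 peak within 1 kb of a start (x axis, percent) for the 9 genes and 6 lists of other adhesion genes, in MV4-11 (blue) and U937 (orange), with counts beside the bars. The dashed and dotted lines give all protein-coding genes, 59.0% in MV4-11 and 50.5% in U937, and the 9 genes, the activation genes and the glycosylation genes lie to the right of both.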

How the data were processed

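CUT&Tag for ZNF217 and IgG was carried out in MV4-11 and U937 (1 library each, grouped by sample title), and the ZNF217 peak lists were used. Per the submitters' notes and the study's methods, alignment was to hg38 (Bowtie2 2.4.4) and MACS3 3.0 was the peak caller, at a q threshold of 0.01. Use of IgG as control, duplicate removal and blacklist filtering are not given in the sources used here. The values deposited by the authors are of another kind than a signal: chromosome, start and end of each peak, in bp. Positions are uncertain by 1 bp, as the counting base of the start is not given.

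Peaks were compared with GENCODE 44 TSSs and gene bodies. Each peak had 1 class, in the order member promoter, member body, promoter of another coding gene, elsewhere. Shares and ratios have exact 95% intervals for counting error only. Sequences came from RefSeq windows (GRCh38.p14) and hg38. Software was samtools 1.23.1, pysam 0.24.0, Python 3.11.15 with SciPy 1.17.1, pandas 2.3.3 and NumPy 2.4.6, and Matplotlib 3.10.9, and scripts were tested on simulated data. No test was possible with 1 library per line. Members and lists were chosen with earlier results of these data known. Named genes were all members with their promoter peaks, the widest other peak and other coding promoters of each locus, and from each list the first 2 genes occupied in both lines and up to 4 occupied in 1. Alternatives were other promoter windows, TSS sets, flanks, overlap rules, minimum widths, merged peaks, lists of equal length and CpG windows. Some genes of the lists are not reported here by name.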

Additional observations from a re-analysis of the deposited data

How the results depend on the processing

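Of 61 alternative values of the counts and shares, 58 stayed within the limits set for them. These limits were wide, so staying within them does not show that a count was stable. The 97 MV4-11 peaks of the 9 loci, for instance, became 76 with flanks of 20 kb and 140 with flanks of 100 kb. Sharing by a reciprocal overlap of 50% lowered the shared part of the 9 loci to 32.0% of MV4-11 peaks and 52.5% of U937 peaks, since 31 peaks of each line then counted. With the widest peaks of each line in lists of equal length, 60.9% of MV4-11 peaks were shared (42 of 69). The share over all peaks was not calculated for such lists. The loci then held 69 peaks in MV4-11 and 59 in U937, so the counts lay closer together than 97 and 59. Of the other adhesion genes 32 were then occupied in MV4-11 and 33 in U937. MV4-11 kept all 9 occupied promoters under every promoter window, TSS set and peak filter tried. In U937 the same 7 were occupied under each of these except the window of 3 kb on each side, which added ITGB7. With a minimum width of 400 bp the U937 peak of 354 bp at the ITGAM start is lost, and ITGAM is then counted through its 416 bp internal peak. With a CpG window of 300 bp ITGA5 was CpG-rich, which left 6 of 9 CpG-poor. Of 80 alternative widths of a gene's widest promoter peak 11 moved, because another peak became the widest or peaks were joined. No paired analysis was possible because each line had 1 library. Without heights, read counts or the IgG samples, neither depth nor background can be compared between the lines.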
